A study of Homo sapiens with 8 samples.

Results

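Cholesterol is built from acetyl-CoA through the mevalonate pathway, which leads to squalene, then to the first sterol, lanosterol, and from there through a chain of reductions and demethylations to cholesterol. When sterols are scarce in the endoplasmic reticulum membrane, the escort protein SCAP carries the SREBP transcription factors to the Golgi, where they are cut and released to switch on the enzymes of the pathway. INSIG proteins hold SCAP back when sterols are plentiful, while oxysterols activate the LXR receptors, which raise genes of cholesterol export. The 28 genes described here were taken by name from these steps, with earlier results of these data known. They comprised 18 enzymes of synthesis, 4 genes of SREBP regulation, 2 intracellular sterol carriers, 3 genes of efflux and LXR response, and LPIN1, out of 35113 genes with matched transcripts. All 28 passed the filter on low counts, which left 15221 genes in the test.

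RNA sequencing had been carried out on 2 head and neck squamous cell carcinoma (HNSCC) cell lines and on a cisplatin resistant derivative of each. The groups were HPV- resistant cells (a clone of UPCISCC89, also called SCC89), HPV- parental cells (UPCISCC89), HPV+ resistant cells (a clone of UDSCC2, also called SCC2) and HPV+ parental cells (UDSCC2), with 2 libraries each. Each resistant group was a single-cell clone picked after long-term culture in increasing cisplatin, so that clone and resistance cannot be told apart, and the same holds for HPV status and cell line. Whether the 2 libraries of each group were grown as separate cultures is not stated. The p-values are therefore measured against library-to-library variation that may be technical. The question addressed was whether the genes of sterol synthesis and its control differed between resistant and parental cells, and whether they did so alike in both lines.

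The libraries held 20250246 to 27341284 read pairs, of which 4.33% to 5.13% lay on transcripts that could not be matched to a gene. The 10 squamous markers were detected in every library, with a summed level of 4750 to 6190 CPM (counts scaled to library size) in HPV- resistant cells, against 23500 to 24600 CPM in HPV- parental cells. Among HPV+ cells the same sum was 5660 to 6940 CPM in resistant cells and 5880 to 6140 CPM in parental cells. The 5 fibroblast markers summed to 7.53 to 8.66 CPM in HPV- resistant cells and 3.65 to 4.27 CPM in HPV- parental cells. In HPV+ resistant cells they summed to 1450 to 3220 CPM and in HPV+ parental cells to 3070 to 3390 CPM, most of it COL3A1, while PDGFRB was at 0 in all HPV+ libraries. COL1A1 was at 5.15 to 6.7 CPM in HPV+ resistant cells and at 5.85 to 6.52 CPM in HPV+ parental cells. Of the same list, DCN was at no more than 43.6 CPM in HPV+ resistant cells and at 99.4 to 119 CPM in HPV+ parental cells, and LUM at 65.8 to 91.0 CPM in HPV+ resistant cells and 241 to 290.0 CPM in HPV+ parental cells. The 5 leukocyte markers summed to at most 20.9 CPM, most of it CD14, and the 3 endothelial markers to at most 0.453 CPM. The part of these marker differences in the results was not tested, and in bulk RNA fewer expressing cells and less RNA per cell cannot be told apart.

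The libraries labelled HPV- resistant replicate 1 and replicate 2 stood apart in this pathway. Of the 18 enzymes, 15 were higher in replicate 1, with a median log2 ratio of 0.50 over replicate 2, whereas the median over all tested genes was -0.02. The same ratio had a median over the enzymes of 0.06 in HPV- parental cells, -0.11 in HPV+ resistant cells and 0.00 in HPV+ parental cells. HMGCS1, the synthase that makes HMG-CoA, had 192.6 and 81.7 CPM in HPV- resistant cells, against 95.3 and 122.6 CPM in HPV- parental cells, so that the parental libraries lay between the resistant ones. Where omitting either library changed a call or a pass in the HPV- line, the value without it is also given.

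**Figure D1:**
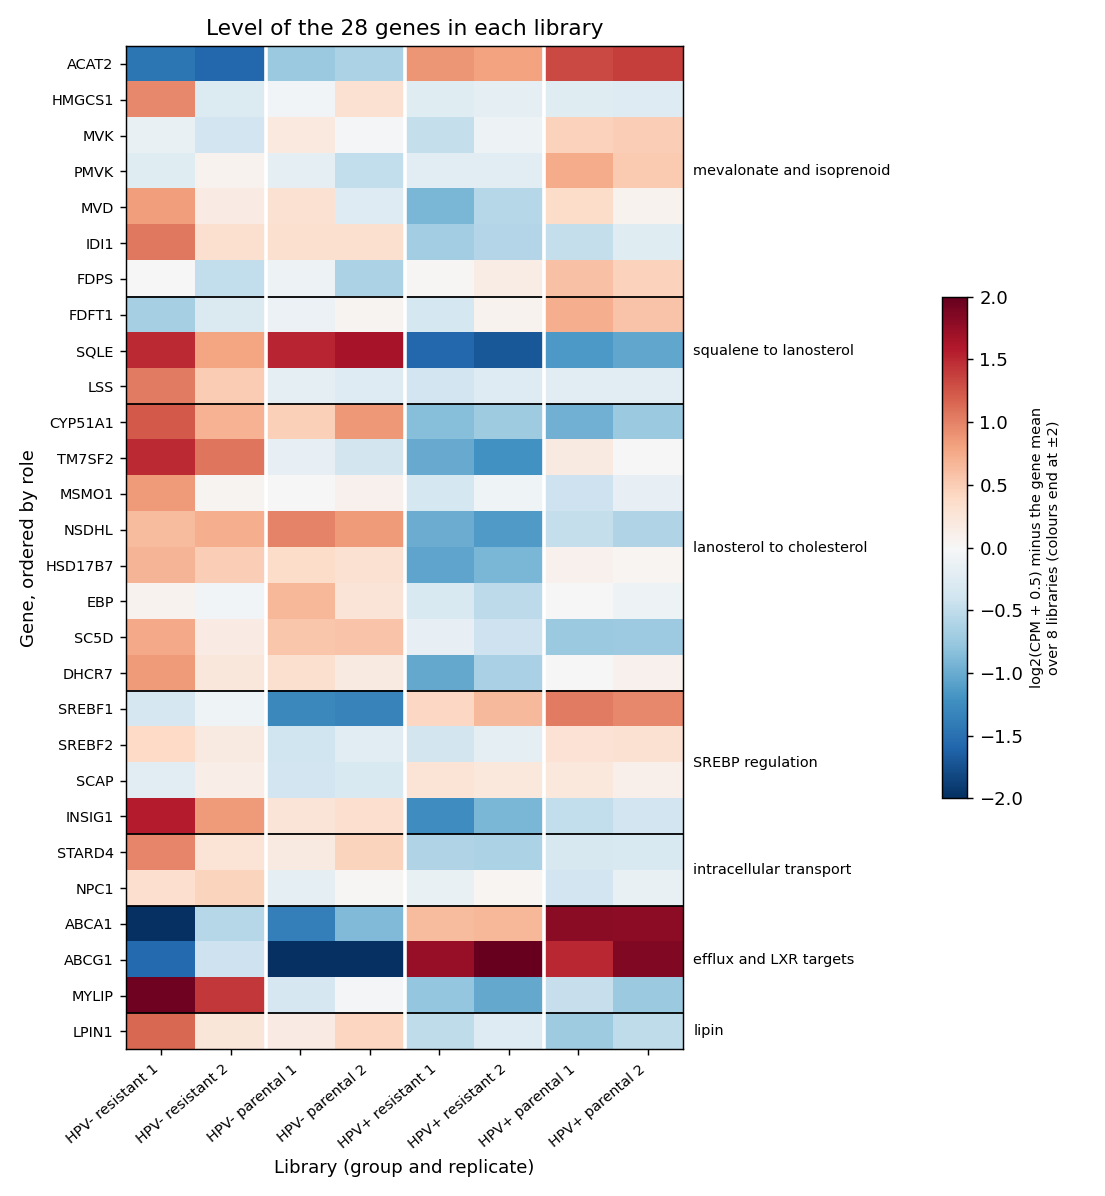
Level of the 28 genes (rows, ordered by role) in the 8 libraries (columns), as log2(CPM + 0.5) minus the gene's mean over the libraries, with colours ending at 2 units either side. HPV- resistant replicate 1 is redder than replicate 2 in most enzyme rows, and the HPV+ resistant columns are bluer than the HPV+ parental columns in TM7SF2, HSD17B7 and DHCR7.

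SREBPs bind sterol regulatory elements near the start of their target genes, usually beside sites for NF-Y and Sp1. RefSeq promoter windows (GRCh38.p14, 250 bases before to 50 bases after the transcription start) matched 24 of the 28 genes, with 31 windows. ACAT2, FDFT1, SQLE and ABCG1 had none. Both strands were searched for TCACNCCAC, a sterol regulatory element core, for CCAAT, the letters bound by NF-Y, and for GGGCGG, those of an Sp1 site. TCACNCCAC occurred in 1 of the 31 windows, that of SREBF2, and in 1.13% of 35116 promoters in the table. CCAAT occurred in 19 of the 31 windows and in 34.6% of all promoters, and GGGCGG in 28 of the 31 windows and in 45.0% of all promoters. Sequences of 4 windows are printed because their genes carry the results that follow: SREBF2, the SREBP gene with the only sterol element match, TM7SF2 and HSD17B7, the enzymes called in HPV+ cells, and INSIG1, the brake on SREBP release. Capitals mark TCACNCCAC and CCAAT on either strand (CCAAT on the other strand reads ATTGG), and none of these matches overlap.
SREBF2, chr22:41832855-41833154, + strand: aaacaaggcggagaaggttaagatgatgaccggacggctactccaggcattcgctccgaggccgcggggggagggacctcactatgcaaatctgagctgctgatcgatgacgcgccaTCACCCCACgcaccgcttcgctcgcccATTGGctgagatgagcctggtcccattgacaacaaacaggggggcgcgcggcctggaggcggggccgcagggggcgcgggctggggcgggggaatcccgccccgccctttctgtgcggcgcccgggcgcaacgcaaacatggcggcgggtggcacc
TM7SF2, chr11:65111622-65111921, + strand: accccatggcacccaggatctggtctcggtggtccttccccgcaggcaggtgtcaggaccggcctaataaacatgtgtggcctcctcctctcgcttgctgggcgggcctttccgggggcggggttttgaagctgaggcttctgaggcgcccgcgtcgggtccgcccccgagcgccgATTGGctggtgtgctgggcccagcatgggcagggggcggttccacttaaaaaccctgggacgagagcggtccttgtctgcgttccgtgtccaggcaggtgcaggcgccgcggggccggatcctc
HSD17B7, chr1:162790452-162790751, + strand: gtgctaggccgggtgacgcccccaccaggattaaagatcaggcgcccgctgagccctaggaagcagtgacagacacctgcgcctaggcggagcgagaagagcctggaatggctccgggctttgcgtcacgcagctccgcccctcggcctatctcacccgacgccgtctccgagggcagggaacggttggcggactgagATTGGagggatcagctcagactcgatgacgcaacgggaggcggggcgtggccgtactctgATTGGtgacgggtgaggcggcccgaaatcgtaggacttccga
INSIG1, chr7:155297628-155297927, + strand: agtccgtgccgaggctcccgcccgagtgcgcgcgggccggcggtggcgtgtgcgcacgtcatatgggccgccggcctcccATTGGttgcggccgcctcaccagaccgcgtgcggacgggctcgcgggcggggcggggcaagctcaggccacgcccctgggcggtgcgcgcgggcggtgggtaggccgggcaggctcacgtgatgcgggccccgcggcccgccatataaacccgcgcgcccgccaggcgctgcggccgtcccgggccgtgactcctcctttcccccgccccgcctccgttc
In the SREBF2 window the TCACNCCAC match began 133 bases before the start and the CCAAT match 106 bases before it. The CCAAT matches began 74 bases before the start of TM7SF2 and 170 bases before that of INSIG1. HSD17B7 had 2 such matches, from 52 bases before and from position 9 after the start. A match is a run of letters in the reference sequence and not a measured binding site. Elements spelled with other letters, or lying outside the windows, were not searched for, so a window without a match may still hold one.

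In the HPV- line, 5 of the 28 genes were higher in resistant cells than in parental cells: LSS, TM7SF2, SREBF1, ABCG1 and MYLIP. A gene was called when its adjusted p was under 0.05 and its log2 fold change beyond 1 in edgeR's quasi-likelihood test, adjusted over all 15221 genes. Of all tested genes, 6.06% were called higher and 5.22% lower. None of the 28 was called lower, with 2 lower at an unadjusted p under 0.05 and 0 called lower by DESeq2. By adjusted p alone, 8 genes were higher and 1 was lower (ACAT2), where 12.8% and 14.1% of all tested genes were. Fewer of the 28 were higher with HPV- resistant replicate 1 or HPV- parental replicate 2 omitted, and more with HPV- resistant replicate 2 omitted. In each of these fits more of them were lower. The numbers of all tested genes called changed in these fits as well. The libraries did not overlap for 11 genes that were higher and 6 that were lower in resistant cells, which was the case for 32.7% and 28.5% of all tested genes. The median log2 fold change of the 28 genes was 0.33, beside 0.04 over all genes. Without HPV- resistant replicate 1 the median was 0.01, and without replicate 2 it was 0.57.

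In the HPV+ line TM7SF2 and HSD17B7, enzymes of the steps after lanosterol, were called lower in resistant cells than in parental cells. No gene was called higher in the edgeR test, with 1 gene higher at an unadjusted p under 0.05 and 0 called higher by DESeq2. Of all tested genes, 4.6% were called lower and 3.4% higher. By adjusted p alone, 10 genes were lower and 0 higher, beside 10.5% and 7.65% of all genes. For 20 of the 28 genes both resistant libraries lay below both parental libraries, and for 3 they lay above, beside 34.3% and 33.5% of all tested genes. The median log2 fold change was -0.46, beside 0.00 over all genes. The 10 genes that passed on adjusted p were ACAT2, MVK, PMVK, MVD, FDFT1, TM7SF2, NSDHL, HSD17B7, DHCR7 and SREBF2. This count depended on single libraries and fell with any HPV+ library omitted. The number of all tested genes called lower in this line fell in these fits as well. The median of the 28 genes was -0.43 with HPV+ parental replicate 1 omitted and -0.49 with replicate 2 omitted. It was -0.47 with either HPV+ resistant library omitted.

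The change in HPV+ cells minus the change in HPV- cells was tested in the same fit. It was called below 0 for 10 of the 28 genes (35.7%) and above 0 for none, beside 6.57% and 5.17% of all tested genes, and no gene was above 0 at an unadjusted p under 0.05 or by DESeq2. The same 10 passed on adjusted p alone, beside 8.57% of all genes below 0 and 8.16% above. They were PMVK and MVD of the mevalonate steps, LSS, the later enzymes TM7SF2, HSD17B7 and DHCR7, the regulators SREBF1, SREBF2 and INSIG1, and the LXR target MYLIP. The median difference over the 28 genes was -0.60, beside -0.03 over all genes, and -0.37 with HPV- resistant replicate 1 omitted. By sign alone, 13 genes were higher in HPV- resistant cells and lower in HPV+ resistant cells, 7 were lower in both, 7 were higher in both and 1 (SC5D) went the other way. The same split was not counted over all tested genes, so these numbers have no background beside them. The number of the 28 called below 0 was smaller with HPV+ parental replicate 1 or HPV+ resistant replicate 1 omitted. The number over all tested genes was smaller in these fits too. The median difference of the 28 was then -0.56 and -0.57, in that order.

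**Figure D2:**
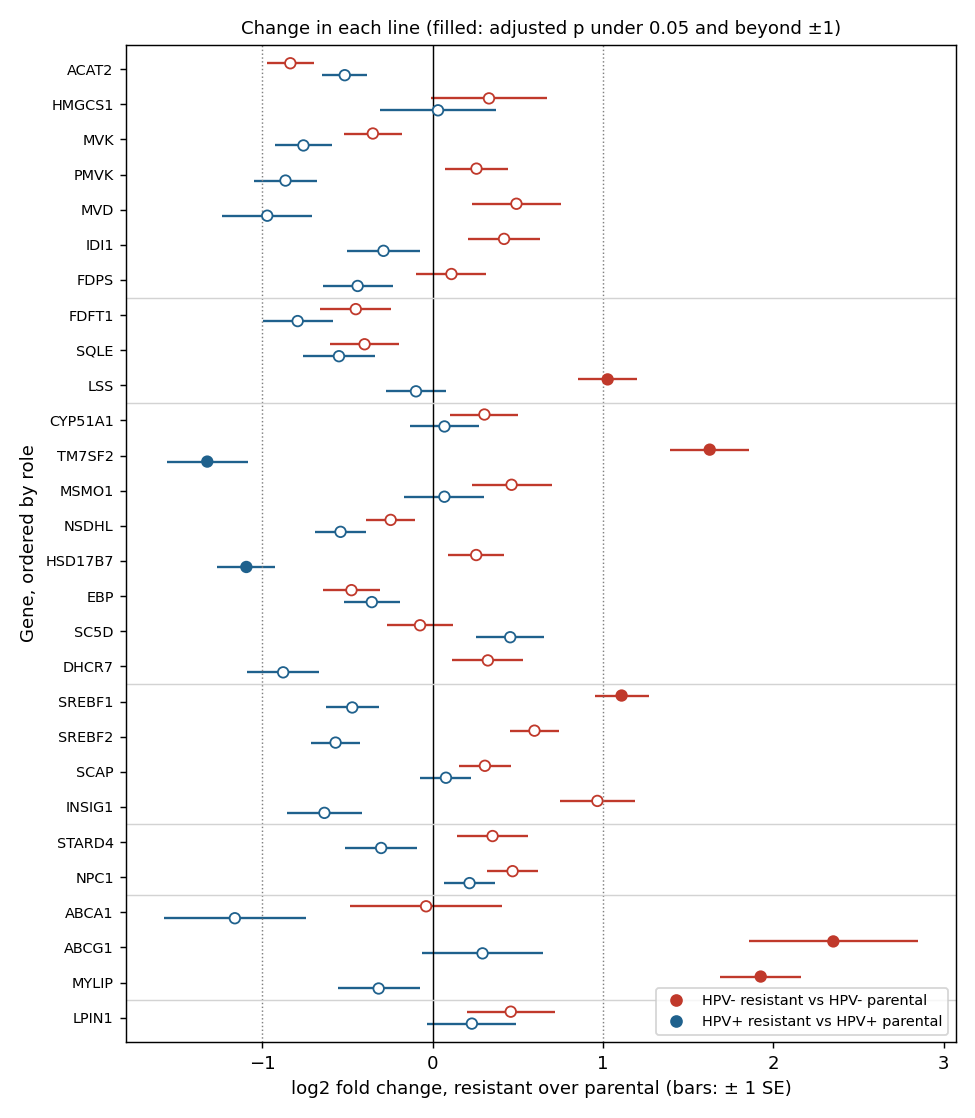
log2 fold change of resistant over parental cells (x axis, bars ± 1 SE) for each gene (y axis, by role) in the HPV- line (red, upper point) and the HPV+ line (blue, lower point). Filled points passed an adjusted p of 0.05 and lay beyond 1 log2 unit (dotted lines), which held for 5 genes above 0 in the HPV- line and 2 genes below 0 in the HPV+ line, with TM7SF2 filled on both sides.

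For 3 of the 4 regulators, SREBF1, SREBF2 and INSIG1, the change in resistant cells differed between the lines. SREBF1 (chr17:17810399-17837002, - strand, GRCh38 with GENCODE release 44, as for all genes here) encodes the SREBP that favours fatty acid genes. It had 546.9 and 651.7 CPM in HPV- resistant cells, against 283.3 and 272.1 CPM in HPV- parental cells, and the groups did not overlap (log2 fold change 1.11 ± 0.16 SE, adjusted p = 0.00102). HPV+ cells gave the reverse order for SREBF1, which had 915.3 and 1077 CPM in resistant cells and 1413 and 1349 CPM in parental cells (log2 fold change -0.47 ± 0.16, adjusted p = 0.0623). The difference between the lines was -1.58 ± 0.22 (adjusted p = 0.00138). Without HPV- resistant replicate 2 the change in the HPV- line was 0.97 and no longer beyond 1.

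SREBF2 (chr22:41833105-41907306, + strand), whose product is the SREBP that favours cholesterol genes, had 275.4 and 237.7 CPM in HPV- resistant cells, against 159.6 and 179.3 CPM in HPV- parental cells. In HPV+ cells the order was turned round, with 161.5 and 185.6 CPM in resistant cells and 256.0 and 258.9 CPM in parental cells. Both changes passed on adjusted p but neither went beyond 1 (0.60 ± 0.14, adjusted p = 0.013 in the HPV- line, and -0.57 ± 0.14, adjusted p = 0.0228 in the HPV+ line). Their difference was -1.17 ± 0.20 (adjusted p = 0.00408). The HPV- change was 0.49 and did not pass with HPV- resistant replicate 1 omitted. The HPV+ change ran from -0.68 to -0.37 over the alternatives, and it too failed to pass in some of them.

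INSIG1 (chr7:155297776-155310235, + strand) is both a brake on SREBP release and an SREBP target. It had 367.6 and 222.8 CPM in HPV- resistant cells, against 147.2 and 154.7 CPM in HPV- parental cells, so that the resistant libraries were the higher ones but far apart. Its log2 fold change was 0.97 ± 0.22 (adjusted p = 0.00981), just under the limit of 1. Without HPV- resistant replicate 2 it was 1.28 and called, and without replicate 1 it was 0.56 and did not pass on adjusted p. In the HPV+ line INSIG1 had 51.9 and 65.1 CPM in resistant cells and 87.1 and 94.6 CPM in parental cells (-0.63 ± 0.22, adjusted p = 0.0708). The difference between the lines was -1.60 ± 0.31 (adjusted p = 0.0067). SCAP, the escort itself, passed no test of resistant against parental cells, with log2 fold changes of 0.31 in the HPV- line and 0.08 in the HPV+ line.

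**Figure D3:**
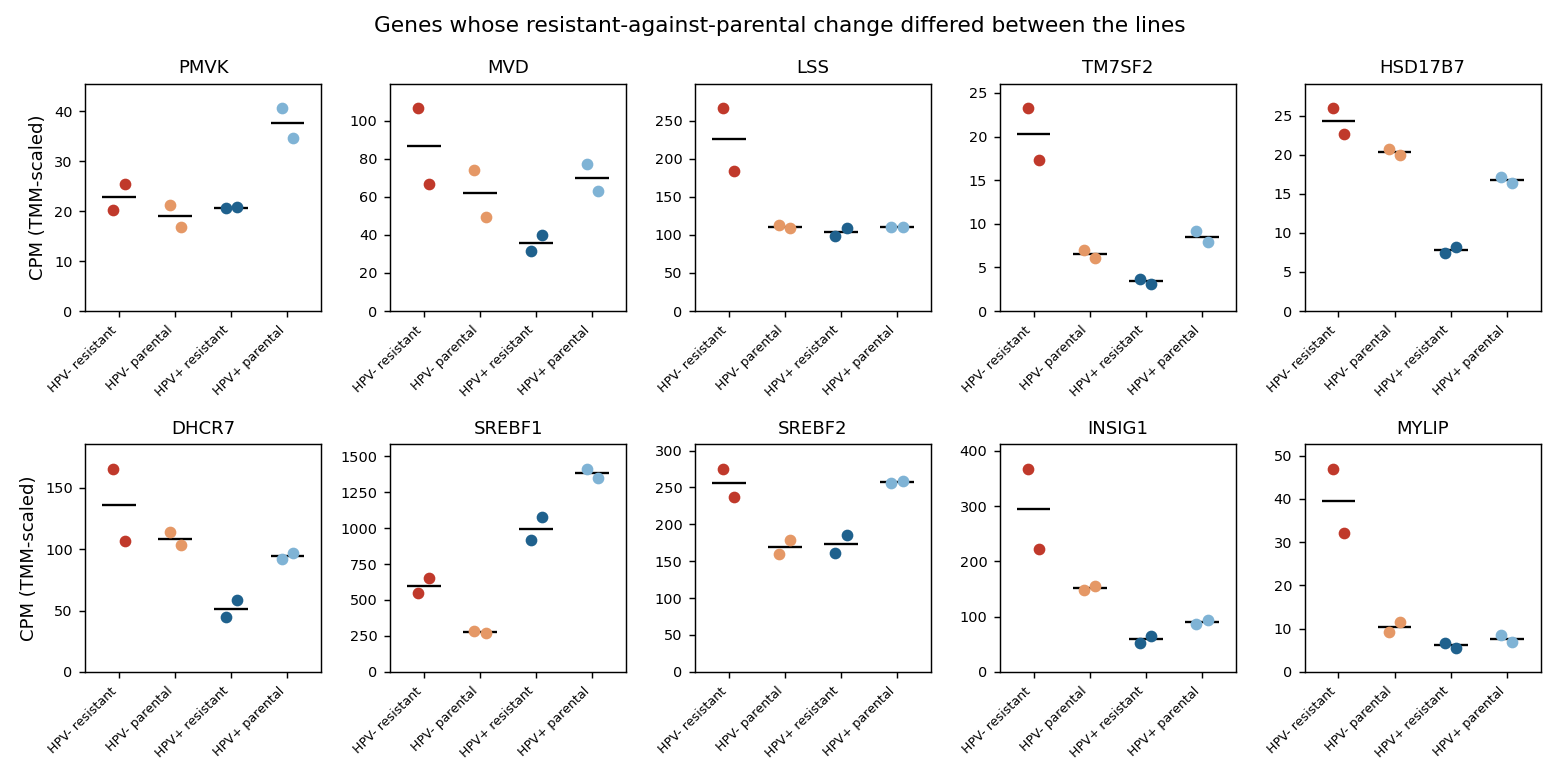
CPM (y axis, linear from 0) in the 2 libraries of each group (points, with the mean as a bar) for the 10 genes whose change differed between the lines. In TM7SF2, SREBF1, SREBF2 and INSIG1 the resistant points lie above the parental ones in HPV- cells and below them in HPV+ cells, while HSD17B7, DHCR7 and PMVK separate mainly in HPV+ cells and LSS and MYLIP mainly in HPV- cells.

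In the mevalonate and isoprenoid steps, 0 of 7 genes were called in either line. ACAT2, which condenses 2 molecules of acetyl-CoA at the entry of the pathway, was lower in resistant cells of both lines. It had 21.3 and 19.4 CPM in HPV- resistant cells, against 34.9 and 37.7 CPM in HPV- parental cells (-0.83 ± 0.14, adjusted p = 0.00212). Levels in HPV+ cells were 108.9 and 102.5 CPM in resistant cells and 147.9 and 154.2 CPM in parental cells (-0.52 ± 0.13, adjusted p = 0.0233). ACAT2 shares exon sequence with TCP1 and SOD2 on the opposite strand, at up to 545 and 252 CPM, and the use of strand in counting is not stated. Exons of MVK, CYP51A1, SREBF1 and NPC1 also overlap protein-coding genes on the opposite strand. These were MMAB, AKAP9, RAI1 and RMC1, at up to 51.5, 173, 133 and 35.4 CPM.

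The kinases and the decarboxylase that follow passed on adjusted p in HPV+ cells. PMVK, phosphomevalonate kinase, had 20.6 and 20.7 CPM in HPV+ resistant cells and 40.6 and 34.6 CPM in HPV+ parental cells (-0.86 ± 0.18, adjusted p = 0.0109). PMVK in the HPV- line had 20.1 and 25.3 CPM in resistant cells and 21.2 and 16.9 CPM in parental cells, which overlapped. The difference between the lines was -1.12 ± 0.26 (adjusted p = 0.0159), and it lost its call without any 1 of HPV- parental replicate 2, HPV- resistant replicate 2, HPV+ parental replicate 1 and either HPV+ resistant library, with values from -0.90 to -1.12.

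MVD, mevalonate diphosphate decarboxylase, had 31.4 and 40.1 CPM in HPV+ resistant cells, against 77.2 and 62.9 CPM in HPV+ parental cells (-0.97 ± 0.26, adjusted p = 0.0332). In HPV- resistant cells it had 106.7 and 67.0 CPM and in HPV- parental cells 73.9 and 49.6 CPM, again overlapping. The difference of -1.46 ± 0.37 (adjusted p = 0.0263) lost its call without HPV- parental replicate 2, HPV- resistant replicate 1, HPV+ parental replicate 1 or HPV+ resistant replicate 1, with values from -1.09 to -1.30, and with a transcript length offset, at -1.42. MVK, mevalonate kinase, was lower in HPV+ resistant cells (-0.76 ± 0.17, adjusted p = 0.0134) and had a log2 fold change of -0.35 in the HPV- line, which did not pass with all libraries and was -0.54 (adjusted p = 0.0494) with HPV- parental replicate 2 omitted. HMGCS1, the isomerase IDI1 and the farnesyl diphosphate synthase FDPS passed in neither line, with log2 fold changes between 0.11 and 0.42 in HPV- cells and between -0.44 and 0.03 in HPV+ cells. With HPV- resistant replicate 2 omitted, however, HMGCS1 (0.81) and IDI1 (0.73) passed in the HPV- line and the difference between the lines was called for IDI1 (-1.03), while with replicate 1 omitted they were at -0.42 and 0.00.

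Of the 3 enzymes from squalene to lanosterol, LSS alone was called. LSS (chr21:46188141-46228824, - strand), lanosterol synthase, closes the first sterol ring system. It had 266.6 and 184.4 CPM in HPV- resistant cells, against 112.8 and 108.4 CPM in HPV- parental cells (1.03 ± 0.18, adjusted p = 0.00248). LSS was nearly level in the HPV+ line, with 98.8 and 108.4 CPM in resistant cells and 110.7 and 110.9 CPM in parental cells (-0.10 ± 0.17, adjusted p = 0.742), and the difference between the lines was -1.13 ± 0.25 (adjusted p = 0.0116). The HPV- change stood close to the limit of 1: it was 0.74 without HPV- resistant replicate 1, 0.93 when HPV- parental replicate 2 was left out, 0.98 when HPV+ parental replicate 1 was, 1.00 in a fit of the 4 HPV- libraries and 0.96 with a transcript length offset, none of which was beyond 1. The difference lost its call without HPV- resistant replicate 1, HPV+ parental replicate 1 or HPV+ resistant replicate 1, at -0.84, -1.09 and -1.06.

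SQLE, squalene epoxidase, an oxygen-dependent step under strong sterol control, had 243.9 and 148.9 CPM in HPV- resistant cells and 247.7 and 270.2 CPM in HPV- parental cells (-0.40 ± 0.20, adjusted p = 0.176). The HPV+ line had 28.7 and 26.1 CPM in resistant cells, against 38.5 and 41.6 CPM in parental cells (-0.55 ± 0.21, adjusted p = 0.0969). The resistant libraries were thus the lower ones in both lines without passing the test on all libraries. In the HPV- line SQLE was -0.80 and passed with HPV- resistant replicate 1 omitted, and was -0.09 with replicate 2 omitted. FDFT1, squalene synthase, is uncertain in these data. The 2035-base canonical transcript of FDFT1 was listed at 0 in all 8 libraries, while a transcript of the same length that matched no gene held 2866 to 5131 read pairs, or 212 and 220 CPM in HPV- resistant and HPV- parental cells and 116 and 195 CPM in HPV+ resistant and HPV+ parental cells. The remaining FDFT1 transcripts gave 14.4 and 19.5 CPM in HPV+ resistant cells and 30.9 and 27.7 CPM in HPV+ parental cells (-0.79 ± 0.20, adjusted p = 0.0247), a change that was -1.03 and called without HPV+ resistant replicate 2.

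Of the 8 enzymes from lanosterol to cholesterol, TM7SF2 was called in both lines and HSD17B7 in HPV+ cells. TM7SF2 (chr11:65111845-65116384, + strand), a sterol reductase acting soon after the first demethylation of lanosterol, had 23.3 and 17.3 CPM in HPV- resistant cells, against 7.05 and 6.09 CPM in HPV- parental cells (1.63 ± 0.23, adjusted p = 0.00102). The order was the opposite in the HPV+ line, with 3.69 and 3.14 CPM in resistant cells and 9.12 and 7.97 CPM in parental cells (-1.32 ± 0.24, adjusted p = 0.00497). The difference of -2.95 ± 0.33 (adjusted p = 0.000389) was the most negative among the 28 genes. Without HPV+ parental replicate 1 the HPV+ change was -1.24 with an adjusted p of 0.0583, where the alternatives ranged from 0.00025 to 0.0583.

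TM7SF2 had the fewest counts of the called enzymes, at 81 to 462 per library, and its exons overlap those of VPS51 on the same strand, which reached 92.2 CPM. Its canonical coding transcript held 66.7% and 89.9% of its counts in HPV- resistant cells and 88.1% and 85.1% in HPV- parental cells. In HPV+ cells that share was 46.3% and 0.0% in resistant cells and 46.1% and 59.0% in parental cells, so that the split between its transcripts was not steady between replicates.

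HSD17B7 (chr1:162790702-162812823, + strand), the ketosteroid reductase of the demethylation complex, was called in HPV+ cells, with 7.46 and 8.25 CPM in resistant cells and 17.1 and 16.4 CPM in parental cells (-1.09 ± 0.17, adjusted p = 0.00248). HPV- levels of HSD17B7 were 25.99 and 22.7 CPM in resistant cells and 20.8 and 19.97 CPM in parental cells (0.26 ± 0.17, adjusted p = 0.281). The difference was -1.35 ± 0.24 (adjusted p = 0.00419). A near copy, the pseudogene HSD17B7P2, had at most 0.159 CPM.

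DHCR7, the reductase that yields cholesterol from dehydrocholesterol, had 44.9 and 58.2 CPM in HPV+ resistant cells, against 92.0 and 97.3 CPM in HPV+ parental cells (-0.88 ± 0.21, adjusted p = 0.0184). In HPV- resistant cells it had 165.7 and 106.5 CPM and in HPV- parental cells 114.0 and 103.3 CPM, with 1 resistant library within the parental range. The difference of -1.20 ± 0.30 (adjusted p = 0.0202) lost its call without HPV- parental replicate 2, HPV- resistant replicate 1, either HPV+ parental library or HPV+ resistant replicate 1, with values from -0.85 to -1.21, and with a transcript length offset, at -1.10. Without HPV+ resistant replicate 2 the HPV+ change was -1.08 and called.

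NSDHL, a sterol dehydrogenase of the same complex, was lower in HPV+ resistant cells (14.4 and 13.0 CPM, against 20.8 and 18.9 CPM in HPV+ parental cells, -0.54 ± 0.15, adjusted p = 0.0318). The isomerase EBP lay lower in the resistant cells of both lines without passing (-0.48, adjusted p = 0.0558, and -0.36, adjusted p = 0.161), although the HPV- change was -0.74 (adjusted p = 0.00431) with HPV- parental replicate 2 omitted. The demethylase CYP51A1, the monooxygenase MSMO1 and the desaturase SC5D passed in neither line, with log2 fold changes between -0.07 and 0.46 in the HPV- line and between 0.07 and 0.46 in the HPV+ line. MSMO1 in the HPV- line was 0.80 and passed with HPV- resistant replicate 2 omitted, and was 0.00 with replicate 1 omitted.

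Of the genes that move or export sterols, MYLIP and ABCG1, which respond to LXR, had the 2 largest increases of the 28 genes in HPV- resistant cells. MYLIP (chr6:16129086-16148248, + strand), a ubiquitin ligase that removes lipoprotein receptors from the cell surface, had 46.9 and 32.0 CPM in HPV- resistant cells, against 9.24 and 11.5 CPM in HPV- parental cells (1.93 ± 0.24, adjusted p = 0.000507). MYLIP in the HPV+ line had 6.70 and 5.54 CPM in resistant cells and 8.45 and 6.80 CPM in parental cells (-0.32 ± 0.24, adjusted p = 0.391). The difference between the lines was -2.24 ± 0.34 (adjusted p = 0.00187), and both the HPV- change and this difference were called in each alternative that was run.

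ABCG1 (chr21:42199689-42297244, + strand), an exporter of cholesterol to lipoprotein particles, was also called in HPV- cells (2.35 ± 0.50, adjusted p = 0.00906). It rested on few reads there, with 42 and 105 counts (2.12 and 5.24 CPM) in HPV- resistant cells, against 18 and 11 counts (0.961 and 0.496 CPM) in HPV- parental cells. HPV+ levels of ABCG1 were 24.98 and 34.4 CPM in resistant cells and 21.3 and 27.1 CPM in parental cells, which overlapped. Without HPV- parental replicate 2 the HPV- change was 1.85 with an adjusted p of 0.0754, where the alternatives ranged from 9.05e-06 to 0.0754. The difference between the lines was -2.06 ± 0.61 (adjusted p = 0.0511). It was called by DESeq2, with upper-quartile factors, with a filter of 5 CPM, with the replicate block and with HPV- resistant replicate 1 omitted, and was between -1.26 and -2.57 when single libraries were omitted, with adjusted p-values over all alternatives from 0.00585 to 0.202.

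ABCA1, the exporter that lipidates apolipoprotein particles, did not follow the others. It had 3.68 and 11.5 CPM in HPV- resistant cells, on either side of the 6.41 and 9.15 CPM in HPV- parental cells (-0.04 ± 0.45, adjusted p = 0.976). In HPV+ cells it had 27.1 and 27.6 CPM in resistant cells, against 61.4 and 60.9 CPM in parental cells, and the groups stood clearly apart. The log2 fold change of -1.16 ± 0.42 had an adjusted p of 0.0947, and the same change was called by DESeq2, in a fit of the 4 HPV+ libraries and without either HPV- resistant library, with adjusted p-values of 0.0148, 8.36e-06, 0.00445 and 0.00435 and a range of 8.36e-06 to 0.289 over all alternatives. In the HPV- line ABCA1 was called lower without HPV- resistant replicate 2, at -1.09, and the difference between the lines was called without HPV- resistant replicate 1, at -1.72.

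Of the sterol carriers, NPC1, which exports cholesterol from lysosomes, had 95.5 and 102.3 CPM in HPV- resistant cells, against 66.1 and 76.6 CPM in HPV- parental cells (0.47 ± 0.15, adjusted p = 0.0416). This pass was lost with some single libraries omitted, among them either HPV- resistant library and HPV- parental replicate 1. Over all such omissions the change ran from 0.36 to 0.52. Its change of 0.22 in the HPV+ line did not pass. STARD4, a soluble carrier between membranes, and LPIN1, a phosphatidate phosphatase regulated by SREBP, passed in neither line, with log2 fold changes of 0.35 and 0.46 in HPV- cells and -0.30 and 0.23 in HPV+ cells. Both passed in the HPV- line with HPV- resistant replicate 2 omitted, at 0.66 and 0.83, and were at -0.05 and -0.06 with replicate 1 omitted.

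Between HPV+ parental and HPV- parental cells, 4 genes were called higher in HPV+ cells (ACAT2, SREBF1, ABCA1 and ABCG1) and 4 lower (SQLE, CYP51A1, NSDHL and SC5D), beside 17.7% and 19.3% of all tested genes. By adjusted p alone, 9 were higher and 9 lower, beside 28% and 30% of all genes. The 9 lower were 4 with HPV+ parental replicate 1 omitted and 5 with either HPV- parental library omitted. The libraries did not overlap for 11 genes higher and 14 lower, beside 39.6% and 39.8% of all genes. These shares of the 28 genes, 14.3% called in each direction, were no larger than those over all genes. Without HPV- parental replicate 1, PMVK and FDPS were also called higher, for a total of 6.

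ABCG1 and ABCA1 had the widest gaps, at 5.07 ± 0.48 (adjusted p = 2.26e-05) and 2.97 ± 0.45 (adjusted p = 0.000773). SREBF1 was 2.31 ± 0.16 higher in HPV+ parental cells (adjusted p = 1.14e-06) and ACAT2 2.06 ± 0.14 higher (adjusted p = 7.67e-07). In the other direction, SQLE was lower by 2.69 log2 units in HPV+ parental cells (-2.69 ± 0.22, adjusted p = 3.25e-06), and CYP51A1, NSDHL and SC5D had log2 fold changes of -1.54, -1.48 and -1.32. For SQLE, the 40.1 ± 2.2 CPM of HPV+ parental cells compared with 259.0 ± 15.9 CPM in HPV- parental cells (SD, n = 2 each).

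Levels of different genes were compared on TPM, the deposited abundance measure that accounts for transcript length. In HPV+ parental cells the highest mean TPM were those of SREBF1 (618.3), FDPS (479.4) and ACAT2 (131.6), and in HPV- parental cells those of FDPS (225.7), EBP (139.9) and SQLE (97.1), closely followed by SREBF1 (94.97). ABCG1 and ABCA1 were at 10.1 and 6.84 TPM in HPV+ parental cells, where MYLIP was lowest at 2.92 TPM, and were themselves lowest in HPV- parental cells, at 0.39 and 0.76 TPM. SQLE stood at 16.6 TPM in HPV+ parental cells. FDFT1 cannot be placed in this order, since its TPM leaves out the unmatched transcript of the same length as its canonical one.

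**Figure D4:**
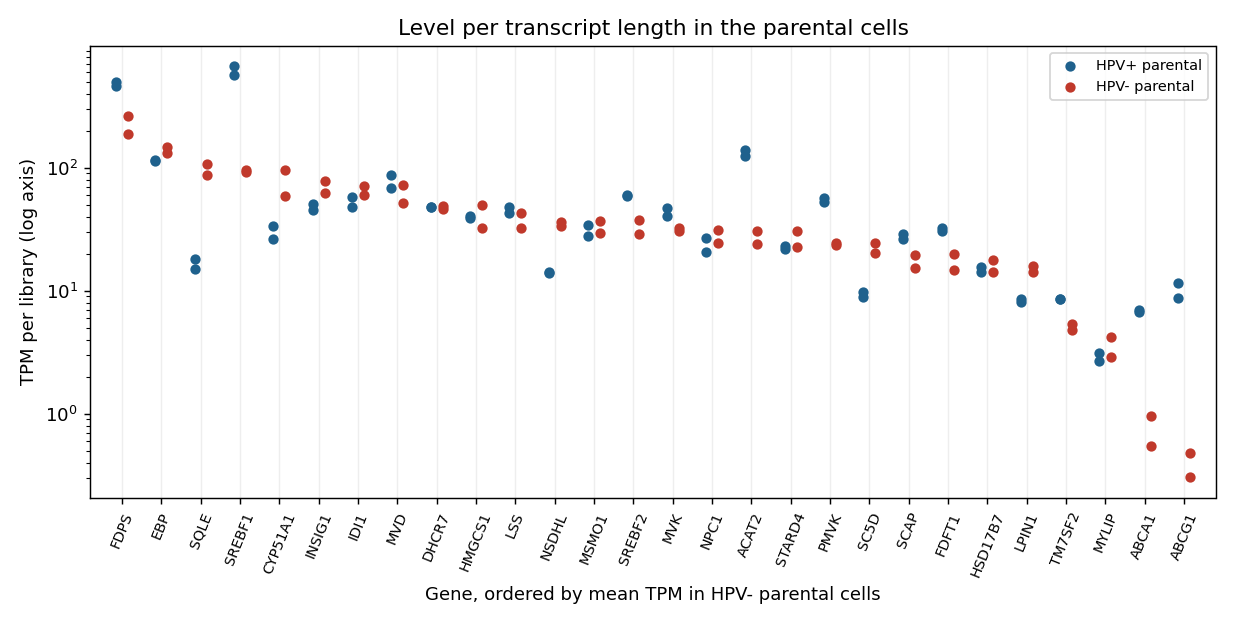
TPM (y axis, log scale) of each gene in the 2 libraries of HPV+ parental cells (blue) and of HPV- parental cells (red), ordered by the mean in HPV- parental cells. The blue points lie far above the red ones for SREBF1, ACAT2, ABCA1 and ABCG1 and far below them for SQLE, while DHCR7, LSS and HSD17B7 lie close together.

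Genes next to the pathway, outside the 28, were counted from lists that were also chosen with earlier results of these data known. Among 11 genes of fatty acid synthesis and desaturation, which SREBPs also control, 4 were called higher in HPV- resistant cells and 0 lower. By adjusted p alone 7 were higher, and 0 were lower at an unadjusted p under 0.05. Over all tested genes the shares were 6.06% called higher, 5.22% called lower and 12.8% higher by adjusted p alone. ELOVL5, a fatty acid elongase, had 234.9 and 196.0 CPM in HPV- resistant cells, against 87.0 and 100.4 CPM in HPV- parental cells (1.20 ± 0.15, adjusted p = 0.000597). FADS1, a desaturase, and FASN, fatty acid synthase, had changes of 1.07 and 1.15 in the same direction, and SCD, the stearoyl-CoA desaturase, had 5780 and 3611 CPM in HPV- resistant cells, against 1668 and 2168 CPM in HPV- parental cells (1.29 ± 0.24, adjusted p = 0.00404).

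In the HPV+ line 1 gene of that list was called higher, the malic enzyme ME1 (1.08), and 1 lower, the desaturase FADS2 (-1.14). The shares called higher and lower over all tested genes were 3.4% and 4.6%. The difference between the lines was called below 0 for FASN (-1.55), SCD (-1.64), ELOVL5 (-1.60) and FADS2 (-2.14) and above 0 for ME1 (1.38). It was called below 0 for 6.57% and above 0 for 5.17% of all tested genes. Among 11 genes of SREBP processing and degradation, RNF145, a sterol-responsive ubiquitin ligase that acts on SCAP, was the only call between resistant and parental cells. It had 156.9 and 236.8 CPM in HPV+ resistant cells, against 70.0 and 85.8 CPM in HPV+ parental cells (1.34 ± 0.22, adjusted p = 0.00358).

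Of 10 oxysterol and LXR genes, 7 were tested and none was called in either line, by edgeR, with 2 higher in HPV- cells and 3 lower in HPV+ cells at an unadjusted p under 0.05. Over all tested genes, 6.06% were called higher and 5.22% lower in the HPV- line, and 3.4% and 4.6% in the HPV+ line. For 3 of the 7 tested the difference between the lines was called below 0, beside 6.57% of all tested genes. They were the receptors NR1H2 (-1.17) and RXRA (-1.08) and LPCAT3, a phospholipid-remodelling LXR target (-1.70 ± 0.19, adjusted p = 0.000389). LPCAT3 had 192.7 and 199.9 CPM in HPV- resistant cells, against 92.7 and 105.8 CPM in HPV- parental cells (0.98 ± 0.14, adjusted p = 0.000829). In HPV+ cells it had 51.2 and 55.8 CPM in resistant cells and 88.0 and 88.1 CPM in parental cells (-0.72 ± 0.14, adjusted p = 0.0063), so that the groups stood apart in opposite directions.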

How the data were processed

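PolyA libraries were sequenced as paired ends (Illumina NovaSeq), and Salmon was run by the authors against GRCh38, with neither its version nor the annotation release stated. The deposited files give estimated counts, TPM and an effective length per transcript (a length in bases, used for 1 alternative only). Of 187432 transcripts, 172550 matched GENCODE release 44 by identifier, and their estimated counts were summed per gene and rounded. Totals were 20250246 to 27341284 read pairs per library. Genes passing filterByExpr (15221) were fitted in edgeR 4.0.16 (R 4.3.3) with TMM factors, 1 coefficient per group over all 8 libraries (4 residual degrees of freedom) and the robust quasi-likelihood test, Benjamini-Hochberg adjusted. SE is the log2 fold change divided by the root of F. CPM are scaled by the TMM factors. Calls used the adjusted p of 0.05 and log2 fold change of 1 that the study applied with DESeq2, which is an alternative here (1.42.0), beside other scalings, filters, a transcript length offset, the replicate block, and leaving out each library. Groups came from the genotype labels, and replicate numbers from the titles.

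The 28 genes and the other lists were chosen with earlier results of these data known. Members called in a comparison, or whose difference between lines passed, are named, most with values per library and some by log2 fold change only. Of the other lists, genes called between resistant and parental cells are named, some by fold change only. Calls of those lists for the difference between the lines are named in part, and those between the parental lines are not named. Replicates of a group differed by more than sampling noise, with chi-square per gene of 16.8 to 60.0. The test was run on simulated counts in which all genes shared a common dispersion (spread between replicates) of 0.0326. That setting leaves out the uneven spread of these libraries, so the check does not cover it.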

Additional observations from a re-analysis of the deposited data

Results flagged for a closer look

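For 10 genes the change of resistant over parental cells differed between the lines by the test of the difference itself (HPV+ change minus HPV- change, log2). The differences were -1.12 for PMVK, -1.46 for MVD, -1.13 for LSS, -2.95 for TM7SF2, -1.35 for HSD17B7, -1.20 for DHCR7, -1.58 for SREBF1, -1.17 for SREBF2, -1.60 for INSIG1 and -2.24 for MYLIP. Those of TM7SF2, HSD17B7, SREBF1, SREBF2, INSIG1 and MYLIP were called under each alternative that was run, and those of PMVK, MVD, LSS and DHCR7 lost the call in fits that left out 1 library, MVD and DHCR7 also with a transcript length offset. Line, HPV status and clone cannot be told apart in this design. No group had 4 libraries or more, so single libraries could not be screened for distance from their group.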

How the results depend on the processing

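No change called with all libraries reversed its direction under any alternative. ABCA1 in the HPV- line, not called with all libraries, was called at -1.09 without HPV- resistant replicate 2 and was 0.56, not called, without replicate 1. Leaving out each library in turn gave 3 to 5 genes called higher and 0 to 1 called lower in the HPV- line, 0 called higher and 1 to 4 called lower in the HPV+ line, 0 above and 6 to 10 below 0 for the difference between the lines, and 4 to 6 higher and 4 to 5 lower for HPV+ parental against HPV- parental cells. The median log2 fold change of the 28 genes ranged from 0.01 to 0.57 in the HPV- line, from -0.49 to -0.43 in the HPV+ line, and from -0.78 to -0.37 for the difference, under the same omissions. The lone library left in a group was then assumed to vary like the other groups. The numbers called over all tested genes also changed under these omissions. By adjusted p alone the HPV+ line had 10 genes lower, against 17 in a fit of its 4 libraries and 4 with a transcript length offset; in HPV+ parental against HPV- parental cells 9 were lower, against 5 with that offset. Upper-quartile scaling moved the median of all genes in the HPV- line to 0.12, against 0.04 with TMM.

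Deviations of same-numbered resistant and parental libraries correlated at -0.07 in the HPV- line and -0.02 in the HPV+ line, and those of the parental libraries numbered 1 at 0.14. Such values from 2 libraries a group cannot show whether the samples were handled in pairs, and the main fit used no pairing. With the replicate block, 5 genes were called higher in the HPV- line, 2 lower in the HPV+ line, 11 below 0 for the difference and 4 in each direction between the parental lines. With 2 libraries a group, changes near a log2 value of 1 depend on the library kept. Transcripts that could not be matched to a gene were left out, which bears on FDFT1 and, among the genes next to the pathway, on ACACA (9 of 23 transcripts in the files), RABGGTA (1 of 21), RXRB (1 of 5) and CYB5R3 (8 of 33).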

Other observations

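The lists that follow are to be read beside the shares called over all tested genes. These were 6.06% higher and 5.22% lower in the HPV- line, and 3.4% higher and 4.6% lower in the HPV+ line. Among 17 genes of sterol uptake, storage and transfer, 16 were tested and 0 were called in the HPV- line by edgeR, with an unadjusted p under 0.05 for 5 genes higher and 1 lower. In the HPV+ line GRAMD1A, a carrier of sterols from the plasma membrane to the endoplasmic reticulum, had 0.357 and 0.930 CPM in resistant cells, against 12.3 and 12.4 CPM in parental cells (-4.25 ± 0.34, adjusted p = 9e-05). GRAMD1C of the same family had 2.30 and 2.56 CPM in HPV+ resistant cells and 0.629 and 0.906 CPM in HPV+ parental cells (1.65 ± 0.32, adjusted p = 0.00747), and OSBPL6, an oxysterol-binding protein relative, had 29.98 and 27.6 CPM in HPV+ resistant cells and 11.99 and 13.7 CPM in HPV+ parental cells (1.17 ± 0.19, adjusted p = 0.00284). Among 15 genes of the isoprenoid branch, PDSS1, which builds the side chain of coenzyme Q, was called lower in HPV- resistant cells, with 9.47 and 11.4 CPM, against 29.5 and 26.2 CPM in HPV- parental cells (-1.42 ± 0.17, adjusted p = 0.000449). Of 5 partners of sterol enzymes, 0 were called in either line by edgeR, with 0 in the HPV- line and 3 lower in the HPV+ line at an unadjusted p under 0.05.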
